A study of Mus musculus with 6 samples.

Results

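The genes described here are 44 antiviral effectors that interferon is known to induce, taken as a fixed list of mouse symbols out of the 53465 genes of the count table. All 44 were found by matching Ensembl identifiers to GENCODE symbols, and 42 of them had enough counts to be among the 13550 genes tested. They were measured in 4T1, a mouse mammary carcinoma line of BALB/c origin, as parental cells (P, 3 libraries) and as an axitinib-resistant variant (AxR, 3 libraries). Axitinib is a tyrosine kinase inhibitor of VEGF receptors. AxR cells were grown out of metastatic lesions of mice that had received axitinib at 100 mg/kg/day before and after removal of the primary tumor, and were then kept in culture with 0.5 μM axitinib for over 2 months. The labels give AxR as a single variant, compared with a single parental line, and exposure to the drug, passage through the animal and selection cannot be told apart in this design. P cells carry no treatment label and are described by the study as vehicle-treated, while the label for growth conditions names axitinib for all 6 samples. Nothing in the labels says whether the 3 libraries of a line came from separate cultures, so the p-values measure the spread between these libraries, which may be technical.

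Interferons are secreted proteins that warn cells of infection. Type I interferon binds its receptor, the kinases JAK1 and TYK2 are activated, and a complex that contains STAT2 and IRF9 moves to the nucleus and binds the interferon-stimulated response element (ISRE) of target promoters. The proteins made from these targets act on several steps of a viral life cycle: they block entry and release at membranes, sense or degrade foreign RNA, stop translation, and modify viral proteins. Many tumor lines, including lines with no infection, differ in the basal level of this program.

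As a group, the effectors were higher in AxR than in P cells. Of the 42 members tested, the quasi-likelihood test of edgeR called 39 higher in AxR cells and 2 lower (adjusted p under 0.05), where 32.8% of all genes tested were higher and 30.8% lower. The log2 fold change was at least 1 in 29 of the 39 (7.99% of all genes tested were called higher with a change of that size) and at least 2 in 22 (2.77% of all genes tested). The median log2 fold change of the 42 was 2.15, while the median of all genes tested was 0.0058. The members that did not follow were Ifi203 and Ifi204, which were lower, Helz2, which did not pass the threshold, and Mx1 and Ifitm1, which had too few counts to be tested. A member low in P cells could be tested only where its AxR counts were high enough, which favors large rises among the 42. With at least 10 counts required in every library, 29 members were tested and 26 were higher (4049 of all 12337 genes in that fit). Their median log2 fold change was 1.23. In bulk RNA a rise in a few cells and a rise in all cells cannot be told apart.

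Short stretches of promoter show what some of these genes have in common outside their expression. The ISRE core was searched as GAAA, any 2 bases and GAAA again, on both strands (TTTC, any 2 bases and TTTC on the other), in RefSeq promoters (GRCm38.p6) that run from 250 bases before to 50 bases after each annotated start. Promoters were found for 34 of the 44 members, and Oas1b, Oas2, Zbp1, Mx1, Mx2, Parp9, Parp14, Ifi204, Ifi27 and Rtp4 had no entry. The core was present in 15 of the 34 (44.1%), where 3.99% of all 27025 genes with a promoter entry held it. The members were listed as genes known to be induced by interferon, so a high share follows in part from that choice. Near copies, such as Ifit3 and Ifit3b, were counted separately. The following windows of 60 bases all lie before the start and are written 5′ to 3′ on the strand of the gene. They are those of some strongly changed members and of 2 members with a small change. Oas3 and Oas1c, with log2 fold changes of 4.72 and 1.52, also hold a core before the start but are not shown. Capitals mark the core or overlapping cores.
Isg15 (chr4:156200856-156200915, minus strand): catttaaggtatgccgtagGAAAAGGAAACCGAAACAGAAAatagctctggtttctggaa
Ifit1 (chr19:34640769-34640828, plus strand): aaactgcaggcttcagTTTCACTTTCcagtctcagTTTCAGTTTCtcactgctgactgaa
Ifit3 (chr19:34583365-34583424, plus strand): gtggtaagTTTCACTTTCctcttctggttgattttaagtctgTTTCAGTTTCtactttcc
Ifit3b (chr19:34607761-34607820, plus strand): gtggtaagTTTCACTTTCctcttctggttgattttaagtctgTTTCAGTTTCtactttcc
Rsad2 (chr12:26456538-26456597, minus strand): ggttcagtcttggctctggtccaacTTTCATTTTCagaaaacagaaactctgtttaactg
Oas1a (chr5:120907526-120907585, minus strand): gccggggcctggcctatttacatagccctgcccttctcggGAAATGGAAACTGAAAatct
Oas1g (chr5:120887614-120887673, minus strand): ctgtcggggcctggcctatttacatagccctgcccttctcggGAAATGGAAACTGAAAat
Bst2 (chr8:71537565-71537624, minus strand): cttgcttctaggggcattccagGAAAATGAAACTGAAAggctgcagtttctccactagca
Ifitm2 (chr7:140955973-140956032, minus strand): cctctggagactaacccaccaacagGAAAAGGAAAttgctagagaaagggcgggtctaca
Ifi203 (chr1:173942493-173942552, minus strand): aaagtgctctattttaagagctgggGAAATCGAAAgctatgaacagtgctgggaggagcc

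The Isg15 window holds 3 overlapping cores, the first of which begins 78 bases before the start. The Ifit3 and Ifit3b windows are identical over all 60 bases but lie at different distances from the annotated starts, with the first core 156 and 188 bases away. Oas1a and Oas1g share an unbroken run of 56 bases that carries 2 overlapping cores. Ifi203 also holds a core, before the second of its annotated starts, and was not higher in AxR cells. In Eif2ak2, Ifitm3 and Trim21 every match lay after the start. The 15 tested members with a core had a median log2 fold change of 2.79 and ranged from -0.16 to 6.76, and the 18 tested members with a promoter entry but no core had a median of 1.80 and ranged from -0.03 to 5.50. The ranges overlap almost entirely, and a match is a description of letters, not a bound site. The GAS motif TTCNNNGAA, which reads the same on both strands and is known from interferon-gamma targets, was present in 8 of the 34 promoters (23.5%), against 9.55% of all genes.

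**Figure D1:**
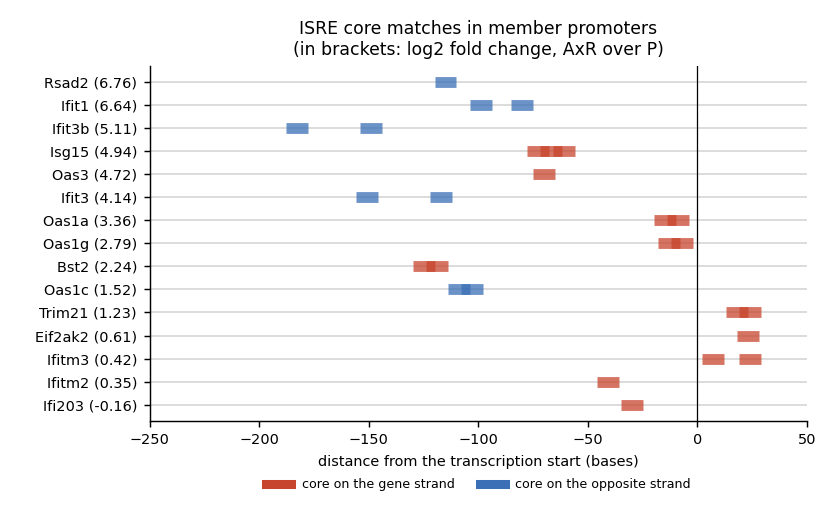
Each line is the promoter of a member that holds the ISRE core, drawn from 250 bases before to 50 bases after the annotated start (vertical line at 0, x axis in bases), and each block is a core of 10 bases, coloured by strand. Members are ordered by their log2 fold change between AxR and P cells, given in brackets, from 6.76 for Rsad2 to -0.16 for Ifi203, and in 12 of the 15 at least 1 core lies before the start.

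Levels are given as normalized read counts in CPM, that is, scaled to a common library size after upper quartile normalization, and the totals behind them lay between 15495260 and 17294525 estimated counts per library. The floor was set at 3 counts, worth 0.171 to 0.196 CPM. Summed over the 44 members, the level was 855, 825 and 842 CPM in P replicates 1 to 3 and 1355, 1479 and 1330 CPM in AxR replicates 1 to 3. In 39 of the 42 members tested every AxR library lay above every P library, as it did for 35.1% of all genes tested, and in 1 member every AxR library lay below (33.2% of all genes tested). For a member separated in this way the two-sided exact permutation test gives p = 0.1, and 3 libraries against 3 allow no smaller value. AxR replicate 2 was the highest AxR library for 33 of the 42 members (78.6%), against 31.3% of all genes tested, and the median shift of the members from the P mean, on the log2(CPM + 0.5) scale, was 1.74 in this library, 1.47 in AxR replicate 1 and 1.55 in AxR replicate 3. Without AxR replicate 2, 39 members were still higher and 2 lower, with a median log2 fold change of 2.05.

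**Figure D2:**
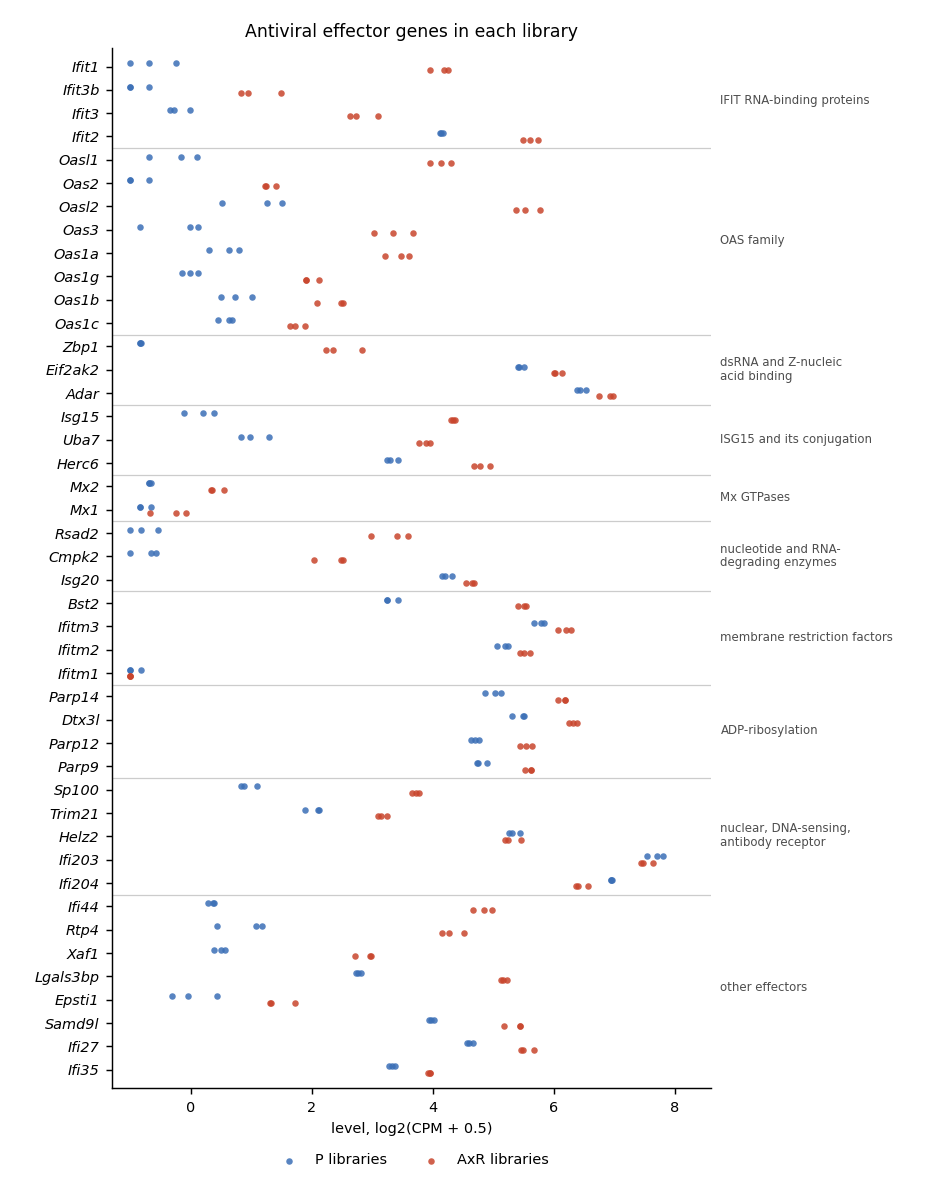
The level of each of the 44 members in each of the 6 libraries, as log2(CPM + 0.5) on the x axis, in 10 groups by role with 1 point per library (P blue, AxR red). The red points lie to the right of the blue ones for 39 members, overlap them for Helz2, Ifi203, Mx1 and Ifitm1, and lie to the left for Ifi204.

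Among the IFIT proteins, some bind foreign RNA by its 5′ end and block its translation. All 4 members of this group rose, with log2 fold changes from 1.5 to 6.64. Ifit1 (ENSMUSG00000034459.8, chr19:34640871-34650009, plus strand of GRCm38) had 0.122, 0.346 and 0 CPM in the P libraries and 17.7, 18.5 and 15 CPM in the AxR libraries. The P libraries together held 8 counts of Ifit1, so the AxR level lies far above a P level that is itself poorly known. Its log2 fold change was 6.64 (SE, the standard error, 0.293, adjusted p = 1.32e-10 by edgeR), and the ratio of the summed counts was 104 with a 95% interval of 52.6 to 242, which covers counting error only. Without P replicate 2, which held 6 of the 8 counts, the log2 fold change was 7.92. Ifit3b had 0.122, 0 and 0 CPM in P libraries and 1.27, 2.30 and 1.42 CPM in AxR libraries, a ratio of 40.6 (10.9 to 341), and its log2 fold change went from 5.11 to 7.77 without P replicate 1. Per kilobase of exon Ifit3b was the lowest of the group in AxR cells, at 0.831 CPM, and all its P libraries were at or under the floor. Ifit3 rose from 0.367 ± 0.105 to 6.59 ± 1.21 CPM (SD, n = 3 each). Ifit2, which had the highest P level per kilobase of the group, rose from 17.1 ± 0.404 to 48.5 ± 4.13 CPM (SD, n = 3 each), which is 1.5 on the log2 scale (SE 0.079). The 4 genes lie in one cluster on chromosome 19 on the same strand, with Ifit1bl1 and Ifit1bl2 among them, with starts 32837, 24439 and 32901 bases apart in the order Ifit2, Ifit3, Ifit3b and Ifit1. Of the windows of 50 bases in Ifit3 transcripts, 51.2% also occur in Ifit3b, so reads can be split between these copies and their separate values are uncertain.

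Active oligoadenylate synthetases are switched on by double-stranded RNA and make a small messenger that leads to the breakdown of RNA. Not every gene of the family encodes an active enzyme, and activity was not tested here. All 8 members of the family rose, with log2 fold changes from 1.52 to 5.50. Oasl1 (ENSMUSG00000041827.15, chr5:114923240-114937915, plus strand), known to restrain translation of IRF7, had 0.122, 0.577 and 0.391 CPM in P libraries and 17, 19.1 and 14.9 CPM in AxR libraries. Its log2 fold change was 5.50 (SE 0.239, adjusted p = 7.06e-11 by edgeR). Oasl2, which carries ubiquitin-like domains beside its synthetase, had 1.88, 0.924 and 2.35 CPM in P and 45.2, 53.9 and 40.8 CPM in AxR libraries, and its log2 fold change was 4.78 (SE 0.206). These neighbours on chromosome 5 have starts 26304 bases apart, and per kilobase of exon both were above Oas2 in AxR cells. Oas2 had 0, 0.115 and 0 CPM in P libraries and 1.84, 1.85 and 2.16 CPM in AxR libraries, a ratio of summed counts of 48.1 (13 to 403), and its log2 fold change went from 5.34 to 7.99 without P replicate 2. Its AxR level per kilobase was 0.438 CPM, against 7.32 for Oasl2 and 6.52 for Oasl1. Oas3 rose by 4.72 on the log2 scale, and its P libraries ranged from 0.0577 to 0.587 CPM.
The log2 fold changes of the Oas1 genes lay between 1.52 and 3.36. Oas1a went from 1.00 ± 0.257 to 10.3 ± 1.5 CPM (SD, n = 3 each) and Oas1g from 0.492 ± 0.0915 to 3.44 ± 0.338 CPM (SD, n = 3 each). In Oas1a transcripts 57.6% of the windows of 50 bases also occur in Oas1g, so these values share reads, and the estimated counts of both were not whole in all 6 libraries. Oas1b, which encodes a truncated protein in most laboratory strains, and Oas1c have starts 121 bases apart on opposite strands, and rose by 1.96 and 1.52 on the log2 scale. The paralogs Oas1d, Oas1e, Oas1f and Oas1h, also on chromosome 5, had at most 1 count in any library.

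Proteins that bind double-stranded or left-handed nucleic acid differed widely in the size of their change. Zbp1 (ENSMUSG00000027514.14, chr2:173206612-173218923, minus strand), a sensor of Z-form nucleic acid that can start necroptosis, had 1 count in each P library (0.0608, 0.0577 and 0.0652 CPM) and 4.57, 6.57 and 4.21 CPM in AxR libraries. The ratio of summed counts was 83.2 with an interval of 28.1 to 406. Zbp1 thus went from under the floor to a level that every AxR library detected with at least 72 counts. Eif2ak2, which encodes the kinase PKR, rose from 43.1 ± 1.64 to 65.9 ± 3.10 CPM (SD, n = 3 each), or by 0.61 on the log2 scale. Adar, whose product edits adenosine in double-stranded RNA, rose by 0.44 (SE 0.0643) from 86.5 ± 4.48 CPM (SD, n = 3), where the median over chromosome 3 was 0.32 (717 genes tested), and the part of this shift in its change was not tested. Both were already well expressed in P cells.

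ISG15 is a ubiquitin-like protein that is joined to other proteins by its own enzymes, and all 3 genes of this group rose. Isg15 (ENSMUSG00000035692.6, chr4:156199424-156200818, minus strand) had 0.425, 0.808 and 0.652 CPM in P libraries and 19.1, 20.2 and 19.6 CPM in AxR libraries. The AxR libraries had a mean of 19.6 ± 0.518 CPM (SD, n = 3), the smallest spread relative to the mean among the 10 members with the largest changes. The log2 fold change was 4.94 (SE 0.165, adjusted p = 3.31e-12 by edgeR). Uba7, the activating enzyme, went from 1.56 ± 0.354 in P to 14.1 ± 0.934 CPM in AxR cells, and Herc6, the main ligase of ISG15 in mice, from 9.47 ± 0.629 to 27.4 ± 2.53 CPM (SD, n = 3 each). Outside the list, the conjugating enzyme Ube2l6 rose by 1.46 and Usp18, which removes ISG15 and also dampens the interferon receptor, by 2.67 on the log2 scale.

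All 3 enzymes that act on nucleotides and RNA rose, with log2 fold changes from 0.42 to 6.76. Rsad2 (ENSMUSG00000020641.16, chr12:26442746-26456452, minus strand) encodes viperin, which makes a nucleotide that ends viral RNA chains. It had 0.182, 0 and 0.0652 CPM in P libraries and 10.1, 11.5 and 7.40 CPM in AxR libraries, a ratio of summed counts of 117 (45.6 to 433). Its fitted log2 fold change was 6.76 (SE 0.387, adjusted p = 2.19e-09 by edgeR), a value that depends on the small prior count of the fit and was 7.98 without P replicate 1. Rsad2 and Ifit1 changed places in size under limma-voom (6.81 and 7.11) and without P replicate 2 (6.17 and 7.92), and their count intervals overlap. Its divergent neighbour Cmpk2, a mitochondrial nucleotide kinase whose start lies 12752 bases away, had 0, 0.173 and 0.130 CPM in P libraries and 5.21, 5.10 and 3.58 CPM in AxR libraries, a ratio of 45.1 (19 to 140), and its log2 fold change went from 5.40 to 6.03 without P replicate 2. In both genes AxR replicate 3 was the lowest AxR library, as in 24 of the 42 members (57.1%) and 38.5% of all genes tested. Isg20, an RNA exonuclease, was present in P cells at 18.1 ± 1.12 CPM and reached 24.1 ± 1.18 CPM (SD, n = 3 each) in AxR cells, or 0.42 on the log2 scale.

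Mx proteins are GTPases that trap viral nucleocapsids, and in most laboratory mouse strains, BALB/c among them, the Mx1 gene is defective. Mx1 had 1, 1 and 2 counts in P libraries and 2, 7 and 6 counts in AxR libraries and was removed by the low-count filter. The ranges meet at 2 counts, and the ratio of summed counts was 3.76 with an interval of 1.20 to 15.6. When genes were not filtered, its log2 fold change was 1.81 (SE 0.872, adjusted p = 0.0959 by edgeR). Mx2 had 2 counts in each P library and 12, 12 and 17 in AxR libraries, and was higher with a log2 fold change of 2.70 (SE 0.470, adjusted p = 0.000133 by edgeR). In AxR cells Mx2 was at 0.831 ± 0.117 CPM (SD, n = 3), and per kilobase of exon, at 0.230 CPM, it was the lowest of all members called.

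At membranes, IFITM proteins hinder fusion of viral envelopes and BST2 (tetherin) holds budding particles on the cell. Per kilobase of exon, Ifitm3 and Ifitm2 had the highest levels of all members in both lines. Ifitm3 had 50.1, 56.9 and 54.4 CPM in P libraries and 73.0, 77.0 and 66.8 CPM in AxR libraries. Ifitm2 had 36.1, 37.5 and 32.7 CPM in P libraries and 45.0, 48.2 and 42.9 CPM in AxR libraries. Their rises were small but separated the lines, with log2 fold changes of 0.42 (SE 0.0672) and 0.35 (SE 0.0725), where the median over chromosome 7 was 0.18. For Ifitm2, 48.5% of the transcript windows of 50 bases also occur in another gene, mostly the overlapping model Gm45717. Bst2 (ENSMUSG00000046718.8, chr8:71534255-71537456, minus strand) had 8.93, 10.2 and 8.93 CPM in P libraries and 44.9, 45.8 and 41.9 CPM in AxR libraries, and its log2 fold change was 2.24 (SE 0.0823, adjusted p = 8.41e-12 by edgeR). In AxR cells Bst2 was the third highest member per kilobase, at 49.0 CPM, after Ifitm3 at 107 and Ifitm2 at 69.2. Ifitm1, which lies between Ifitm2 and Ifitm3 on chromosome 7, had 1 count in P replicate 3 and none in the other 5 libraries, so no fold change is given for it.

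All 4 ADP-ribosylation genes rose. Parp9 and Dtx3l, whose proteins form a complex of a transferase and a ubiquitin ligase, rose by 0.81 and 0.89 on the log2 scale, Parp12 by 0.85 and Parp14 by 1.15, with SE between 0.0658 and 0.0735, and the differences between these genes were not tested. Per kilobase of exon Dtx3l was the highest of the 4, and it went from 42.7 ± 3.25 CPM in P to 78.9 ± 3.42 CPM in AxR cells (SD, n = 3 each). The Parp9 and Dtx3l gene models run in opposite directions and overlap by 682 bases. The estimated counts of both were not whole in all 6 libraries. Whether reads were divided between Parp9 and Dtx3l was not tested. Among the PARP genes outside the list, Parp10 rose by 1.55 while Parp11 fell by 1.60 on the log2 scale, from 15.7 ± 0.848 to 5.18 ± 0.593 CPM (SD, n = 3 each).

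Members that did not follow were found mainly among the nuclear and DNA-sensing proteins, where 2 of 5 rose. Ifi204 (ENSMUSG00000073489.6, chr1:173747293-173766943, minus strand), a DNA-binding protein of the Ifi200 family, had 122, 123 and 123 CPM in P libraries and 84.1, 93.6 and 82.0 CPM in AxR libraries. It was the only tested member with every AxR library below every P library, and its log2 fold change was -0.51 (SE 0.0571, adjusted p = 1.71e-06 by edgeR). Ifi203, of the same family, had 222, 186 and 208 CPM in P libraries and 178, 199 and 173 CPM in AxR libraries. These ranges overlap, and its log2 fold change of -0.16 (SE 0.0682) passed the threshold narrowly with an adjusted p of 0.0495 by edgeR. The call was lost in 6 of 13 alternatives, including those without P replicate 1 (adjusted p = 0.256 by edgeR), P replicate 3 (0.134), AxR replicate 1 (0.145) or AxR replicate 3 (0.160), and the adjusted p over all 13 lay between 0.00554 and 0.256. Over chromosome 1 the median log2 fold change was -0.29 (811 genes tested), and the part of this shift in the values of Ifi203 and Ifi204 was not tested. Windows of 50 bases that occur in other genes made up 12.2% of those in Ifi203 transcripts, and 703 of 3512 in Ifi204 transcripts, mostly shared with Ifi211.
Other genes of the family were not uniform. Ifi202b, outside the list, fell by 0.25 on the log2 scale from 104 ± 4.17 CPM (SD, n = 3), Mndal rose by 0.42, Ifi207 rose by 1.76 from 0.651 ± 0.144 CPM (SD, n = 3), and Ifi209 had a log2 fold change of 0.32 (adjusted p = 0.357 by edgeR). The reads came from a line of BALB/c origin and were aligned to the C57BL/6J reference, and the effect of strain differences on the counts of this family was not tested.
Helz2, a helicase that acts as a transcriptional coactivator, had 39.0, 42.7 and 37.9 CPM in P libraries and 36.2, 37.4 and 43.5 CPM in AxR libraries. The lines overlap, and its log2 fold change was -0.03 (SE 0.0793, adjusted p = 0.772 by edgeR). The sign turned to positive without P replicate 2 (0.026), AxR replicate 1 (0.027) or AxR replicate 2 (0.0045). In contrast, Sp100, a component of PML nuclear bodies that also lies on chromosome 1, rose from 1.41 ± 0.191 to 12.6 ± 0.515 CPM (SD, n = 3 each), or by 3.16 on the log2 scale. Trim21, a cytosolic antibody receptor, rose by 1.23 (SE 0.135).

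All 8 remaining effectors rose, with log2 fold changes from 0.64 to 5.17. Ifi44 (ENSMUSG00000028037.13, chr3:151730922-151749960, minus strand) had 0.790, 0.808 and 0.717 CPM in P libraries and 24.9, 31.1 and 28.2 CPM in AxR libraries. Its log2 fold change of 5.17 (SE 0.154) had the smallest adjusted p of the members, 8.91e-13 by edgeR. Its relative Ifi44l, by comparison, had 1 count in 1 library. Rtp4 rose by 3.77, the proapoptotic gene Xaf1 by 2.93, Lgals3bp, a secreted galectin-binding protein, by 2.49, and Epsti1 by 2.07 on the log2 scale. Samd9l, a growth-suppressing gene, rose from 15.2 ± 0.418 to 40.5 ± 4.12 CPM (SD, n = 3 each). The smallest changes of this group were those of Ifi27 at 0.95 and Ifi35 at 0.64.

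**Figure D3:**
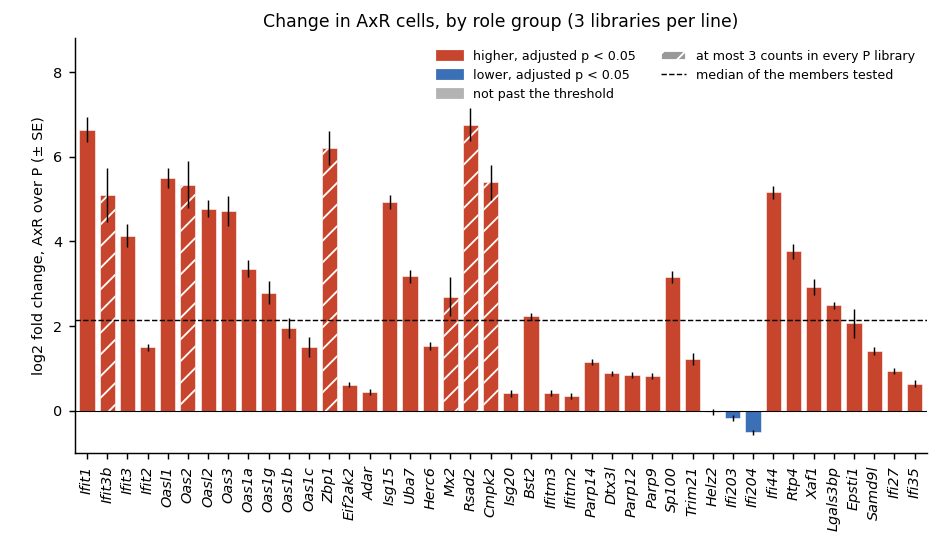
Log2 fold change of the 42 tested members between AxR and P cells (y axis, bars from 0, error bars ± 1 standard error of the edgeR fit), grouped by role in the order of the text, with 3 libraries per line. Hatched bars mark members whose P libraries all held 3 counts or fewer, the dashed line is the median of 2.15, and the bars range from -0.51 for Ifi204 to 6.76 for Rsad2.

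Among the tested members, those low in P cells had the larger log2 fold changes, and a member low in P cells could pass the low-count filter only where its AxR counts were high enough. The 22 tested members under 2 CPM in P cells ranged from 1.52 to 6.76, and Mx1 and Ifitm1, also under 2 CPM, did not pass the filter. All 8 members between 2 and 20 CPM were higher, with a median of 1.46. Of the 12 members at 20 CPM or more, 9 were higher, and the median was 0.53 with a range of -0.51 to 1.15. Across the 42 members, Spearman's rho between the P level per kilobase and the log2 fold change was -0.89, a description only, since the P libraries enter both measures and genes are not independent replicates. A total of 8 members, 6 of them tested, were at or under the floor in every P library. With these 6 set to the lower limit of their count ratio, the median log2 fold change of the 42 was 2.01. In AxR cells, in CPM not divided by length, the tested members under 2 CPM in P cells lay between 0.831 and 46.6, Mx1 was at 0.305, Ifitm1 was at 0, and those at 20 CPM or more between 39.1 and 183.

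**Figure D4:**
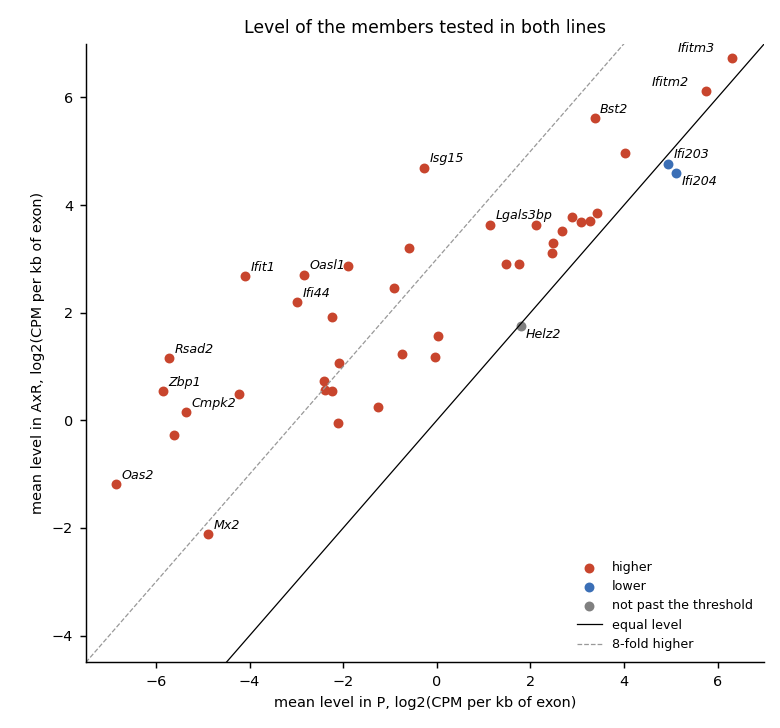
Mean level of each of the 42 tested members in P cells (x axis) and in AxR cells (y axis), as log2 of CPM per kilobase of exon, with n = 3 libraries per line. The solid line marks equal level and the dashed line an 8-fold higher level in AxR cells, the members lowest in P cells lie farthest above the solid line, and Ifitm3, Ifitm2, Ifi203, Ifi204 and Helz2 lie near the solid line.

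The genes that make, receive and relay the interferon signal were examined as the other members of the pathway, and their counts are read beside the 32.8% of all genes tested that were higher and the 30.8% that were lower. None of the 19 interferon genes searched, among them Ifnb1, Ifng and 12 numbered Ifna genes, had more than 1 count in any library, and none could be tested. Of the 12 receptor and JAK-STAT genes, 6 were higher and 5 lower. Stat2 and Irf9, which belong to the complex that binds the ISRE, rose by 1.79 and 1.12 on the log2 scale, and Stat2 went from 7.68 ± 0.580 to 26.6 ± 2.56 CPM (SD, n = 3 each). The receptor chains Ifnar1, Il10rb, Ifngr2 and Ifnar2, all on chromosome 16, fell by 0.68, 0.65, 0.47 and 0.36, where the median over chromosome 16 was -0.32 (397 genes tested), and the part of this shift in their change was not tested. The receptor chains Ifngr1, on chromosome 10, and Ifnlr1, on chromosome 4, rose by 0.63 and 0.65. The medians over these chromosomes were 0.25 and 0.09. Jak2 fell by 0.31 and Jak1 had a log2 fold change of 0.04 (adjusted p = 0.519 by edgeR).
Of the 15 sensors, adaptors and interferon regulatory factors tested, 12 were higher and 1 lower. Irf7 rose by 3.12, from 0.895 ± 0.199 to 7.85 ± 0.609 CPM (SD, n = 3 each), and the RNA sensors Dhx58 and Ifih1 by 2.77 and 1.71. Tmem173, which encodes the adaptor STING, rose by 1.95, where the median over chromosome 18 was 0.50. Cgas, the DNA sensor upstream of it, fell by 0.52 from 35.8 ± 0.724 to 25.0 ± 2.45 CPM (SD, n = 3 each). The median over chromosome 9, which holds Cgas, was -0.23. Irf3 and Myd88 had log2 fold changes of -0.10 and 0.02 (adjusted p = 0.232 and 0.888 by edgeR). Among the 9 tested feedback genes and partners of the effectors, 5 were higher and 2 lower. Socs3 fell by 0.58, and Ptpn6, a phosphatase that dampens JAK signaling, rose by 1.95. Socs1 and Irf2 had log2 fold changes of 0.07 and 0.0046 (adjusted p = 0.785 and 0.955 by edgeR). Over all 43 tested pathway genes outside the list, 27 (62.8%) were higher and 10 (23.3%) lower. These 43 include 7 tested paralogs of the effectors, of which 4 were higher and 2 lower.

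**Figure D5:**
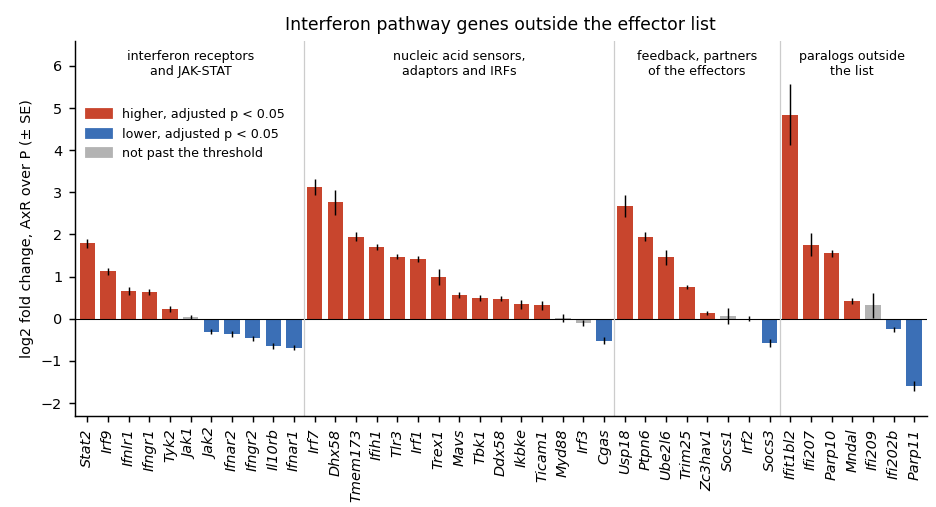
Log2 fold change between AxR and P cells of 41 tested interferon pathway genes outside the effector list, in 4 groups with 3 libraries per line. The last group holds paralogs of the effectors. Bars start from 0 on the y axis, and error bars are ± 1 standard error of the edgeR fit. Values range from -1.60 for Parp11 to 4.84 for Ifit1bl2, the receptor chains Ifnar1, Ifnar2, Ifngr2 and Il10rb lie below 0, and Ifngr1 and Ifnlr1 lie above it.

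Markers of other cell types were read beside these results because leukocytes express many of the same effectors. Of 13 leukocyte markers, 11 never exceeded 5 counts in a library, and Cd3e, Adgre1, Tyrobp, Fcer1g and Siglech were among those with none. The other two, Cd14 and Cd68, rose from 3.52 ± 0.851 to 8.39 ± 0.325 CPM and from 3.39 ± 0.291 to 8.02 ± 0.111 CPM (SD, n = 3 each), so that the summed level of the list was 6.14 to 8.35 CPM in P and 16.6 to 17.4 CPM in AxR libraries, and the part of this rise in the effectors' change was not tested. Of 5 plasmacytoid dendritic cell markers, Siglech had no count, Tcf4 and Bst2 itself rose, and Irf8 fell by 1.39 on the log2 scale. The last of these markers, Ccr9, was not tested and had 0, 1 and 2 counts in P and 4, 6.73 and 6.49 estimated counts in AxR libraries, which do not overlap. The 5 endothelial and 6 lung epithelial markers had at most 7 counts in any library. Of 6 fibroblast markers only Pdgfra was tested, and it fell by 1.15. Untested, Pdgfrb had 0, 0 and 0 counts in P and 5, 6 and 4 in AxR libraries. Col1a2, also untested, had 0, 0 and 2 counts in P and 3, 5 and 3 in AxR libraries. Neither of these overlaps between the lines, while Col1a1 and Dcn do, and Lum had no count. Cd14, Tcf4 and Pdgfrb lie on chromosome 18, where the median log2 fold change was 0.50. The part of this shift in their change was not tested. The epithelial markers Epcam, Cdh1, Krt8, Krt18, Krt7 and Krt14 were present in both lines, each higher in AxR cells, and Krt5 had no count.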

How the data were processed

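Stranded, poly(A)-selected RNA libraries of 4T1 P and AxR cells (3 per line, lines and replicate numbers from the labels) were analysed. The deposited values are estimated counts per gene, which the authors made with STAR 2.6.0a on GRCm38 (GENCODE M16) and RSEM 1.3.1 after FastQC 0.11.5. RSEM divides reads that match several genes, so genes with near copies share reads. Whether RSEM was run with a strand setting was not given in the sources used here. After rounding, genes were kept by filterByExpr, libraries were scaled by their upper quartile, and edgeR 4.0.16 (R 4.3.3) gave quasi-likelihood F tests with line as the only term and a prior count of 0.125, with Benjamini-Hochberg adjustment over 13550 genes and a threshold of 0.05. Standard errors were taken as the log2 fold change over the root of F. Count ratios carry exact binomial 95% intervals, for counting error only. Symbols, positions and exon lengths came from GENCODE M21 of the same build, which held 53274 of the 53465 identifiers, and promoters from RefSeq.

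The members and gene lists were chosen with earlier results of these data known. Values in each library are printed for the 10 largest changes, the members that did not follow and the 3 highest per kilobase in each line. Replicates differed by more than sampling noise (chi-square per degree of freedom 5.10 to 19.7). Alternatives were TMM, library size only, DESeq2 1.42.0, limma-voom 3.58.1, other filters, a replicate block, leaving out each library, a size limit, and promoters before the start only. The tests were tried on simulated counts. Some genes of the lists enter the counts but are not reported here by name.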

Additional observations from a re-analysis of the deposited data

How the results depend on the processing

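In every fit that tested all 42 members or more, 39 members were higher in AxR cells, and these were the same 39 genes. That holds for TMM, library size only, DESeq2, limma-voom, no low-count filter, the replicate block and each library left out. With at least 10 counts in every library, 29 members were tested and 26 were higher. The count of lower members fell from 2 to 1 under limma-voom and under the replicate block, and ranged from 1 to 2 when single libraries were left out, Ifi203 being the member lost. A minimum size of 1 on the log2 scale, in either direction, left 29 members higher and 0 lower by edgeR (2 at an unadjusted p under 0.05 with no limit on size), 14 pathway genes higher and 1 lower, and 1083 of all genes higher and 640 lower, which follows from the added criterion. The median log2 fold change of the members was 2.01 with no low-count filter, which adds Mx1 and Ifitm1, 1.23 with at least 10 counts in every library, which removes the members lowest in P cells, and 2.05 to 2.36 when single libraries were left out, the highest without P replicate 3. The log2 fold change of Helz2 ran from -0.11 to 0.027 when single libraries were left out. Its sign turned without P replicate 2 (0.026), AxR replicate 1 (0.027) and AxR replicate 2 (0.0045), the cause was not tested, and it passed the threshold in none of its 13 alternatives. Same-numbered libraries of the lines did not deviate together (correlations between -0.0217 and -0.0061). These correlations cannot show whether such libraries were grown or processed together. The replicate block changed no other member's call. With promoters read only before the start, 35.3% of the matched members held the ISRE core, against 3.46% of all genes. The GAS motif was then held by 5 of 34 (14.7%), against 8.13% of all genes. Depth limits the 8 members at or under the floor in P cells, whose fold changes are known only within wide intervals.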
